A study of Mus musculus with 4 samples.

Results

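The class 3 semaphorins and their receptors were followed in tumour-derived breast cancer cells of MMTV-Neu mice that differed in the p21-activated kinase Pak1. The members were the 6 ligands Sema3a, Sema3b, Sema3c, Sema3d, Sema3e and Sema3f, and the 4 receptor genes Nrp1, Nrp2, Plxna1 and Plxnd1. They were found by gene name among the non-control probes, which gave 14 probes for 10 of the 31829 gene names on the array, and the brightest probe of a gene gave its value. The 10 genes were selected on earlier results of the same contrast in the same arrays, so their differences are given as a description, without p-values, and counts of those past the threshold stand only beside the share of all genes. RNA was measured on 4 single-colour Agilent arrays, 2 labelled Pak1-/- and 2 labelled Pak1+/+. All of these cells carried the Neu (Her2) oncogene under the MMTV promoter, which is active in mammary epithelium, and all were kept without serum for 3 h and then given EGF for 15 min. The 2 samples of each group came from different tumours per the series design, and p-values measure only the spread between these samples. The lines labelled Pak1-/- were derived from knockout animals, and differences between the tumours and between the genotypes cannot be told apart with 2 cultures a group.

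Semaphorins are guidance proteins, first known from growing axons and later from vessels and epithelia. The class 3 members are the secreted ones among the vertebrate semaphorins. Most of them bind a neuropilin, which has a short cytoplasmic tail and holds the ligand, while a plexin of the A group or plexin-D1 passes the signal into the cell by acting on small GTPases. Sema3e is the known exception, since it binds plexin-D1 without a neuropilin. Neuropilins are also receptors for vascular endothelial growth factors, which compete with class 3 semaphorins for them, and in tumours Sema3b and Sema3f are known as growth-restraining ligands and Sema3c as a ligand tied to migration.

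Each value below rests on 60-base probes. The last 30 bases are shown, 5′ to 3′, for the probes of Sema3b, Sema3f and Sema3e, the brighter Sema3c probe and both Nrp2 probes. Any AATAAA, the letters of the common polyadenylation signal, is in capitals. Coordinates of probes were taken from the files and refer to mm9.
Sema3b, A_55_P1973868, minus strand, chr9:107500686-107500745: taaagtaacgcAATAAAcacattatcagct
Sema3f, A_55_P1998442, minus strand, chr9:107583833-107583892: atcttgctAATAAAtgctggctctgggact
Sema3c, A_55_P2143025, plus strand, chr5:17235981-17236040: ttaccacatgagaatttaattagatgttga
Sema3e, A_55_P2087414, plus strand, chr5:14256598-14256656: tattgaatggaatttctatttcatttgact
Nrp2, A_52_P93910, plus strand, chr1:62865129-62865188: tactgtgattcttcaatgtaaaaAATAAAa
Nrp2, A_65_P15245, plus strand, chr1:62843298-62843357: ggtacctagacaaatagagaccattgggaa
Over their full length, 4 of the 14 member probes held AATAAA on the strand of the transcript (Sema3b, Sema3f, the brighter Nrp2 probe and the brighter Plxnd1 probe), against 12.6% of the 39429 probes on the array.

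The arrays were alike in brightness, with median spot intensities of 322 to 331 over a median local background of 39.0 to 42.0, and 62.2% to 70.4% of probes were well above background. All arrays lay on 1 slide with each genotype in its own positions, so position and genotype cannot be told apart. The 1 Pak1 probe was not lower under the knockout label: its normalized log2 intensity was 12.21 and 12.25 under the Pak1-/- label and 12.04 and 12.04 under the Pak1+/+ label, a difference of 0.19 (SE 0.07, limma adjusted p = 0.070). Whether the probe lies in the deleted part of the gene is not given in the sources used here, so it may not check the labels. Directions below therefore follow the labels only. Erbb2, the mouse gene of Neu, was bright in both groups, at 11.91 and 11.95 against 12.26 and 12.21 (log2 difference -0.31, SE 0.07, adjusted p = 0.020). Whether its probe reads the transgene is not given in the sources used here. The cells carried epithelial markers, with 9 of 10 well above background on every array. Of these 10, Cdh1 (log2 difference 1.19), Krt8 (0.57) and Krt18 (0.27) rose and Krt7 (-1.10) and Elf3 (-0.32) fell, with adjusted p-values up to 0.044. Of 10 markers each of other cell types, 4 endothelial, 6 leukocyte and 3 fibroblast ones were also well above background on every array, among them Kdr, Itgam, Cd3e and Csf1r, while 4 endothelial (Cldn5, Tek, Emcn and Tie1), 2 leukocyte (Lyz2 and Laptm5) and 4 fibroblast markers (Col3a1, Dcn, Lum and Pdgfrb) were so on none. Of these markers, Emr1 (log2 difference -1.05, adjusted p = 0.0011) and Ptprc (-0.45, adjusted p = 0.0056) fell, Col1a1 rose (1.12, adjusted p = 0.0051), and Postn, dim on the Pak1+/+ arrays, was at least 10.4-fold higher (adjusted p = 0.0018). Summed intensity over the 10 fibroblast markers was 3689 and 2477 under the Pak1-/- label and 1993 and 1383 under the Pak1+/+ label, and without Postn, which held 3.97% to 49.5% of it, 1862 and 1670 against 1914 and 1308, which overlapped. Over the 10 endothelial markers it was 11331 and 11042 against 10135 and 11912, and over the 10 leukocyte markers 75207 and 52609 against 48335 and 43901. These last 2 sums were mostly 1 probe each, since Kdr held 80.0% to 83.6% of the endothelial sum and Itgam 85.8% to 91.6% of the leukocyte sum, and neither probe passed the test. Without them the sums were 1864 and 2064 against 2023 and 2039 for the endothelial markers and 6288 and 6057 against 5270 and 6220 for the leukocyte markers, which overlapped too. The part of these markers in the results was not tested, and in a culture measured as bulk RNA, fewer cells of a type and less RNA per cell cannot be told apart.

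Among the ligands, Sema3b stood out in the arrays labelled Pak1-/-. Sema3b is a secreted ligand of both neuropilins and a known target of p53. Its 1 probe read 7.51 and 7.75 (normalized log2 intensity) under the Pak1-/- label and 13.09 and 13.06 under the Pak1+/+ label. The groups lay far apart, and the probe was well above background on all 4 arrays. The means were 7.63 ± 0.17 (SD, n = 2) and 13.07 ± 0.026 (SD, n = 2), so that the level labelled Pak1-/- was 43.6-fold lower (log2 difference -5.45, SE 0.11). With Agilent's processed intensities scaled to the 75th percentile it was 75.6-fold lower (-6.24), and with normexp intensities scaled in that way it was 44.0-fold lower. Before any normalization, the spot intensities were 167 and 206 against 9073 and 8337, over a local background of at most 51 at any member spot. Only 12 of the 27229 tested probes had a more negative difference.

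Sema3e, the ligand that signals through plexin-D1, was also lower, though by far less. Its probe read 7.91 and 7.56 under the Pak1-/- label and 8.68 and 8.93 under the Pak1+/+ label, which left the groups apart. The log2 difference was -1.07 (SE 0.16), or 2.10-fold lower. The spot intensities behind it were 222 and 177 against 400 and 459, low on every array though well above background on all 4.

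Sema3c and Sema3f lay on the other side. Sema3c, a ligand of both neuropilins known from outflow tract development of the heart, was read by 2 probes. The brighter (A_55_P2143025) gave 13.56 and 13.37 under the Pak1-/- label and 12.73 and 12.86 under the Pak1+/+ label, a log2 difference of 0.67 (SE 0.10, 1.59-fold higher). The other (A_52_P87839) gave 10.90 and 10.76 against 10.04 and 10.07, a log2 difference of 0.78 (SE 0.08, 1.71-fold higher). Both probes kept the groups apart and pointed the same way. Sema3f, which prefers Nrp2 as its receptor, read 14.72 and 14.67 against 14.40 and 14.32. The groups did not overlap here either, but the log2 difference was 0.34 (SE 0.07, 1.27-fold higher), small beside that of Sema3b.

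The remaining ligands were hardly seen. Sema3a, the prototype repellent of axons and a ligand of Nrp1, gave 6.43 and 6.75 under the Pak1-/- label and 7.33 and 6.89 under the Pak1+/+ label with its brighter probe (A_55_P2014249), which was well above background on the first Pak1+/+ array only. Its other probe (A_55_P2054013) gave 6.64 and 6.43 against 6.67 and 6.72 and was well above background on none. Sema3d, a ligand known from heart and vessel development, gave 6.97 and 6.78 against 6.32 and 6.44 and was well above background on the first array labelled Pak1-/- only. Neither gene entered the fit, and no fold is given for them.

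Both neuropilins were higher in the arrays labelled Pak1-/-. Nrp2, the main receptor of Sema3f and a coreceptor of lymphatic growth factors, was read by 2 probes that lie 21.8 kb apart and are assigned by the files to different RefSeq transcript variants. The brighter (A_52_P93910) gave 12.65 and 12.29 under the Pak1-/- label and 11.59 and 11.66 under the Pak1+/+ label, a log2 difference of 0.85 (SE 0.14, 1.80-fold higher). The other (A_65_P15245) gave 11.23 and 10.90 against 10.52 and 10.38, a log2 difference of 0.61 (SE 0.14, 1.53-fold higher). The groups did not overlap on either probe. The brighter probe exceeded the other by 1.42 and 1.39 log2 under the Pak1-/- label and by 1.06 and 1.28 under the Pak1+/+ label. The gaps of the 2 Sema3c probes (2.66 and 2.61 against 2.69 and 2.79) and of the 2 Plxnd1 probes (2.28 and 2.05 against 1.84 and 1.95) did not overlap between the groups either, so that this was not particular to Nrp2. Nrp1, the receptor of Sema3a, read 10.23 and 10.31 against 9.93 and 9.996. Its groups were apart by a log2 difference of 0.31 (SE 0.07, 1.24-fold higher).

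The plexin members differed little between the groups. Plxna1, the signalling partner of the neuropilins, gave 11.20 and 11.07 under the Pak1-/- label and 11.08 and 11.02 under the Pak1+/+ label. The groups overlapped, and the log2 difference of 0.09 was about the size of its SE of 0.08. Plxnd1, the receptor of Sema3e, gave 12.35 and 12.05 against 12.08 and 12.06 with its brighter probe (A_55_P2151822), a log2 difference of 0.13 (SE 0.12). Its other probe (A_52_P472319) gave 10.08 and 9.99 against 10.23 and 10.11, a log2 difference of -0.14 (SE 0.08), so that the 2 probes disagreed in direction. The difference of the brighter Plxnd1 probe turned to -0.02 without the first array labelled Pak1-/- and was 0.28 without the second.

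**Figure D1:**
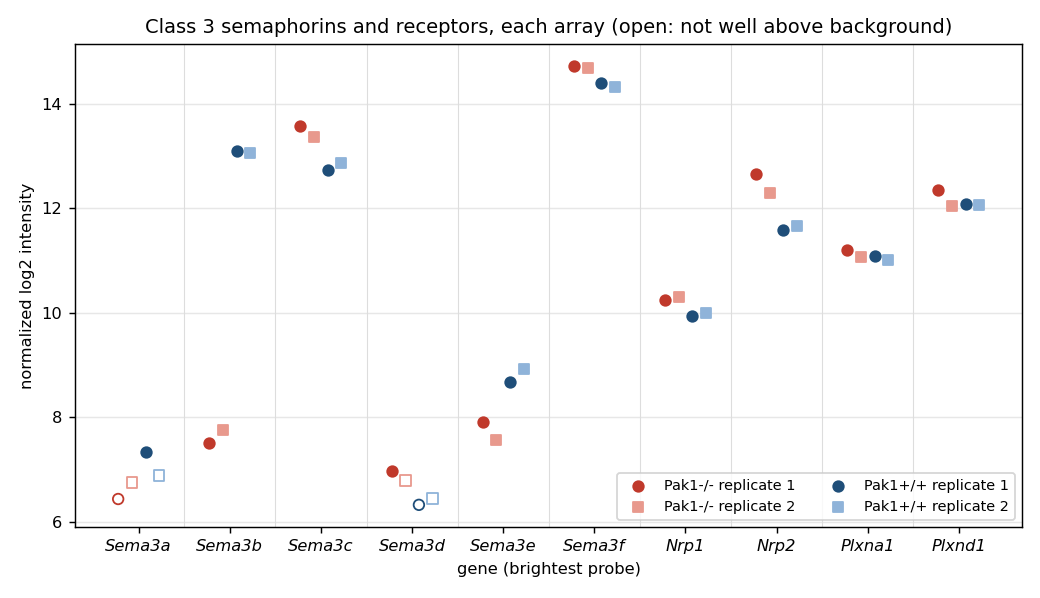
Normalized log2 intensity (vertical axis) of the brightest probe of each of the 10 genes (horizontal axis) on each of the 4 arrays, red for the arrays labelled Pak1-/- and blue for those labelled Pak1+/+, with circles for replicate 1 and squares for replicate 2, and open symbols where the spot was not well above background. Sema3b sits at 7.51 and 7.75 in red and at 13.09 and 13.06 in blue, while the points of Plxna1 and Plxnd1 overlap.

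**Figure D2:**
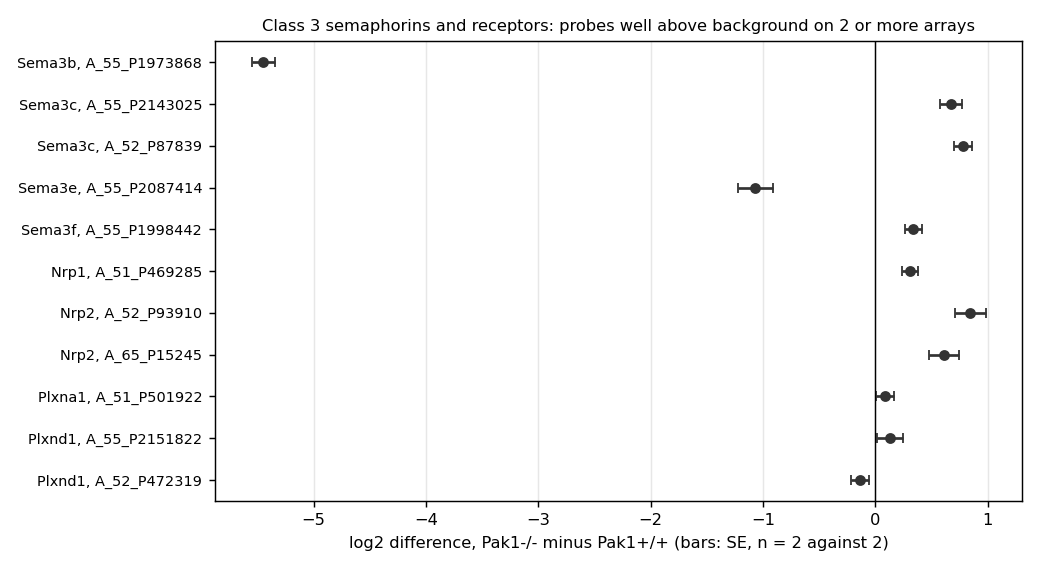
Log2 difference, arrays labelled Pak1-/- minus Pak1+/+ (horizontal axis), of each of the 11 member probes that entered the fit, with bars for the SE (n = 2 against 2). Both Sema3c probes and both Nrp2 probes lie to the right of 0, Sema3b lies at -5.45, and the Plxnd1 probes fall on either side of 0.

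By the brightest probe, 8 of the 10 genes entered the fit. Of these, 4 (Sema3c, Sema3f, Nrp1 and Nrp2) were past the limma threshold of an adjusted p of 0.05 with higher values in the arrays labelled Pak1-/-, beside 22.8% of the 21961 genes tested. In the other direction 2 (Sema3b and Sema3e) were past it, beside 28.2% of all genes tested. Over single probes and either direction, 51.9% of the 27229 tested probes were past the threshold. The same 4 and 2 genes had groups that did not overlap, beside 34.2% of genes with those labelled Pak1-/- above and 43.4% with them below. Nothing is read from these counts, since the genes were chosen by this contrast. The median log2 difference was 0.22 over the 8 members and -0.05 over all genes tested. Leaving out 1 array moved the higher count most: 2 or 3 genes in place of 4 were past the threshold, since Nrp1 fell short without any 1 of the 4 arrays and Sema3f without the first array labelled Pak1-/- or either Pak1+/+ array.

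Promoter sequence was at hand in the RefSeq table (GRCm38.p6) for 7 of the 10 genes. The 250 bases before the start site were searched on both strands for GGGCGG, the core of the GC box bound by Sp factors. Overlapping matches were counted. The letters were found in 5 of these 7 promoters, against 32.7% of 32851 promoters of the same length. Nrp2 held 5 matches, Sema3c held 3, Sema3e held 2, and Nrp1 and Plxnd1 held 1 each, while Sema3a and Sema3d held 0. The 2 higher genes with the most matches are shown, with GGGCGG or its reverse complement CCGCCC in capitals.
Sema3c, plus strand, GRCm38.p6 chr5:17574566-17574815: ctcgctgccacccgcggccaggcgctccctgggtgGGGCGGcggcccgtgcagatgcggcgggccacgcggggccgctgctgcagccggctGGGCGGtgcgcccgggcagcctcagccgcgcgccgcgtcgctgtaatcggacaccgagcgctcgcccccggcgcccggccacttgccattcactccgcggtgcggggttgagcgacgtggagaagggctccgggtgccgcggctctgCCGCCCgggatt
Nrp2, plus strand, GRCm38.p6 chr1:62703067-62703316: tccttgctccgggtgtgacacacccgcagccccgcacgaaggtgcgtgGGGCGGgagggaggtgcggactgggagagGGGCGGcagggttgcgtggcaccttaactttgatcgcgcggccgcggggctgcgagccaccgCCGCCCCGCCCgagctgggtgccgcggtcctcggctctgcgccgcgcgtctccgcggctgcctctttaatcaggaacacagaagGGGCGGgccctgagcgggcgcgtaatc
A match is a description of the letters, and Sema3e, which was lower in the arrays labelled Pak1-/-, held it too.

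Position in the genome did not sort the ligands by direction. On chromosome 5, the probes of Sema3d, Sema3a, Sema3e and Sema3c spanned 4.65 Mb of mm9, with the lower Sema3e and the higher Sema3c in the same stretch. The stretch held 23 other gene names, of which 14 were tested, 5 were lower and 2 were higher. Among all genes tested, 28.2% were lower and 22.8% higher, and nothing is read from these counts. Those lower were Cacna2d1, Speer4d and entries named only by an identifier. On chromosome 9, Sema3b and Sema3f lay 83.1 kb apart, with differences of -5.45 and 0.34.

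The genes around Sema3b and Sema3f differed in both directions. This stretch is the mouse counterpart of a human region known for candidate tumour suppressor genes. Within 500 kb of either probe, 39 of 45 genes were tested. Of them 18 rose, 4 fell and 17 did not pass the test (limma, Benjamini-Hochberg), beside 22.8% higher and 28.2% lower among all genes tested, with a median log2 difference of 0.29 and a range of -1.24 to 2.64. The count that fell was 3 without the first Pak1+/+ array and 2 without any other single array. The upper end of that range was Uba7, an activating enzyme of the ubiquitin-like protein Isg15, named here after its value was seen. Hyal1, a hyaluronidase, lay 18.7 kb from the Sema3b probe and rose from 10.06 and 10.08 on the Pak1+/+ arrays to 12.42 and 12.41 on the arrays labelled Pak1-/- (log2 difference 2.34, SE 0.07, adjusted p = 0.00010). Ifrd2, the nearest of the named neighbours at 5.32 kb, fell from 12.63 and 12.66 to 11.39 and 11.42 (log2 difference -1.24, SE 0.07, adjusted p = 0.00040). The others that fell, named here after their values were seen, did so by less: Traip (-0.63), Cacna2d2 (-0.27) and Hemk1 (-0.24), with adjusted p-values up to 0.039.

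The other named neighbours, the largest differences within 200 kb, rose. Rassf1, a Ras association domain protein, differed by 1.03 log2 (SE 0.08, adjusted p = 0.00093). Tusc4, a brake on the mTORC1 pathway now named Nprl2, differed by 0.99 (SE 0.07, adjusted p = 0.00071). Nat6 (1.04), Zmynd10 (0.77), Rbm5 (0.58), Hyal2 (0.55) and the G protein subunit Gnai2 (0.86) were also higher, with adjusted p-values up to 0.0065, as was a probe listed under the transcript ENSMUST00000112387 (1.78). None of these groups overlapped, but the genes were selected by passing the test. Among all genes tested, 34.2% had groups that did not overlap with those labelled Pak1-/- above.

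**Figure D3:**
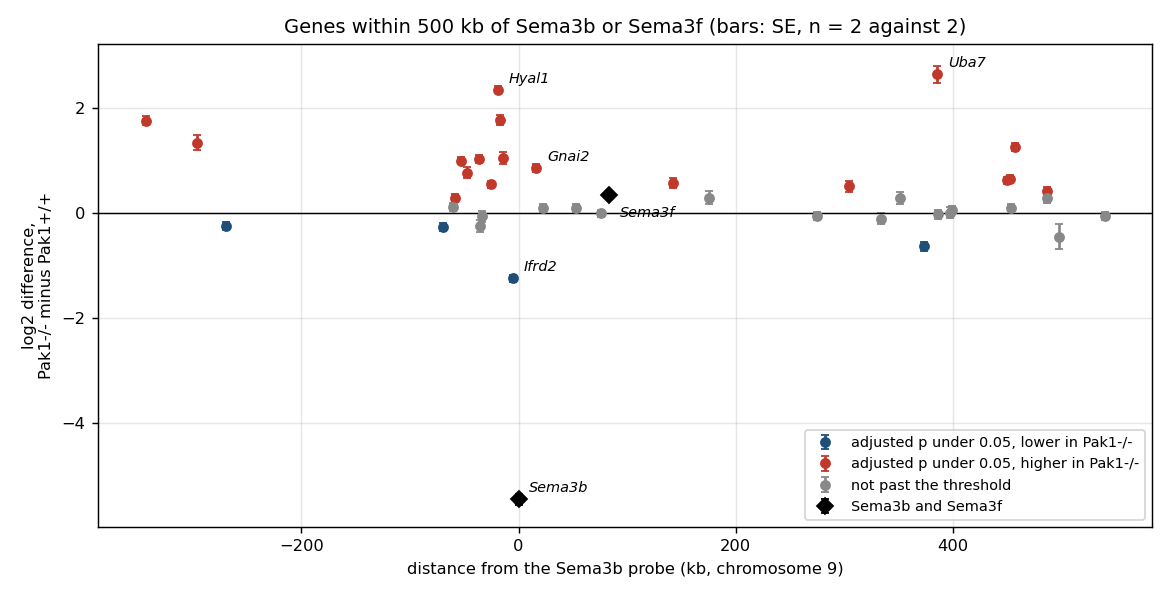
Log2 difference, arrays labelled Pak1-/- minus Pak1+/+ (vertical axis, bars for the SE, n = 2 against 2), of the tested genes within 500 kb of Sema3b or Sema3f against the distance of their probe from the Sema3b probe in kb (horizontal axis). Red and blue mark genes past an adjusted p of 0.05, grey the others, and black diamonds the pair of semaphorins. Sema3b at -5.45 lies far below every neighbour, the lowest of which is Ifrd2 at -1.24.

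The other semaphorins, which are mostly membrane-bound, went both ways. All 14 were on the array and 13 were tested, of which 5 rose, 4 fell and 4 did not pass the test, with a median log2 difference of -0.02. Among all genes tested, 22.8% were higher and 28.2% lower, and the counts of this and the following lists are given beside those shares, with nothing particular to a list read from them. The balance depends on the scaling: of the probes past the threshold 44.9% were higher, and 52.4% with cyclic loess. Sema5a, a transmembrane ligand of plexin-B3, fell from 12.38 and 12.34 on the Pak1+/+ arrays to 9.12 and 9.17 on the arrays labelled Pak1-/- (log2 difference -3.21, SE 0.07, adjusted p = 6.2e-05). Sema6a, a ligand of A-type plexins, rose from 9.59 and 9.12 to 11.48 and 10.97 (log2 difference 1.86, SE 0.24, adjusted p = 0.0036). Sema4d, the ligand of plexin-B1, rose from 12.39 and 12.46 to 13.68 and 13.52 (log2 difference 1.18, SE 0.09, adjusted p = 0.00092). These 3 genes moved by more than the spread between their replicates, which passing the test by which they were named already requires.

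Sema4f (1.85) and Sema4b (0.95) rose as well, and Sema4g (-0.97) fell, with adjusted p-values up to 0.0052. Sema7a, a membrane-anchored ligand of plexin-C1, was not well above background on the Pak1+/+ arrays and was at least 1.58-fold higher on the arrays labelled Pak1-/- (adjusted p = 0.0028). The falls of Sema6d (-0.48, adjusted p = 0.046) and Sema6c (-0.30, adjusted p = 0.021) were small. Sema6c did not pass the test with cyclic loess or without any 1 of the 4 arrays, and Sema6d passed it under 4 of 12 alternatives. The second Sema6d probe differed by -0.07 (adjusted p = 0.48). Sema3g, the remaining class 3 ligand, gave 6.81 and 6.62 against 6.97 and 6.81 (adjusted p = 0.22), and its second probe was not well above background on the Pak1+/+ arrays.

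Of the 7 other plexins, 5 were tested, 3 rose and 1 fell. Plxnb1, the receptor of Sema4d, rose from 11.85 and 11.86 to 13.05 and 12.85 (log2 difference 1.10, SE 0.09, adjusted p = 0.0012), the same direction as its ligand. Plxnb3, the receptor of Sema5a, fell from 9.63 and 9.44 to 8.51 and 8.63 (log2 difference -0.97, SE 0.10, adjusted p = 0.0020), again in the direction of its ligand. Plxna2, an A-type partner of the neuropilins, rose by 0.61 (SE 0.07, adjusted p = 0.0025). Plxnb2 differed by 0.30 (SE 0.08, adjusted p = 0.028), which did not pass the test under scaling to the 75th percentile, with the replicate block, or without the first array labelled Pak1-/- or either Pak1+/+ array. Plxna3, at 10.97 and 10.32 against 10.17 and 10.22, did not pass the test (adjusted p = 0.16). Plxna4 and Plxnc1 were well above background on no array.

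Growth factors and adhesion molecules that share the neuropilins moved in both directions. Of 13 genes, 11 were tested, 2 rose and 5 fell. Pgf, the placental growth factor that binds Flt1 and neuropilins, rose from 8.59 and 8.65 on the Pak1+/+ arrays to 12.45 and 12.75 on the arrays labelled Pak1-/- (log2 difference 3.98, SE 0.12, adjusted p = 0.00011, 15.8-fold). Flt1, its receptor, fell from 10.63 and 10.64 to 8.26 and 8.25 (log2 difference -2.38, SE 0.07, adjusted p = 9.6e-05). Ligand and receptor thus went opposite ways, with no overlap between the groups of either gene. Groups were likewise apart in 34.2% of all genes tested with those labelled Pak1-/- above, and in 43.4% with them below.

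The other vascular ligands that passed the test were lower. Vegfb, a further ligand of Flt1, fell by 1.22 on the log2 scale (SE 0.09, adjusted p = 0.00084), and Vegfc, a lymphatic growth factor that binds Nrp2, fell by 0.68 (SE 0.12, adjusted p = 0.0096), though without the second array labelled Pak1-/- its adjusted p was 0.051. Figf, now named Vegfd, was not well above background under the Pak1-/- label and was at least 1.83-fold lower there (adjusted p = 0.00068). Vegfa gave 13.22 and 13.14 against 13.32 and 13.28 (adjusted p = 0.21). Kdr, the main receptor of Vegfa, gave 13.21 and 13.13 against 12.99 and 13.27 (adjusted p = 0.78). Its second probe was not well above background on the Pak1+/+ arrays and was at least 2.17-fold higher on the arrays labelled Pak1-/- (adjusted p = 0.00046). Among adhesion molecules that pair with neuropilins, L1cam rose by 0.74 (SE 0.10, adjusted p = 0.0040). The brightest Chl1 probe was not well above background under the Pak1-/- label and was at least 12.9-fold lower there (adjusted p = 6.5e-05). The second Chl1 probe fell by 2.30 as well (SE 0.43, adjusted p = 0.011), which is 4.93-fold and less than that bound. It was well above background on 3 arrays and read 6.60 and 7.88 under the Pak1-/- label.

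Class 3 semaphorins are cut by furin-like convertases, and Sema3c also by the secreted metalloprotease Adamts1. Of the 5 proteases listed, 4 were tested, 3 rose and 1 fell. Adamts1 rose from 8.11 and 7.76 on the Pak1+/+ arrays to 12.58 and 12.39 on the arrays labelled Pak1-/- (log2 difference 4.55, SE 0.15, adjusted p = 0.00012, 23.4-fold). Pcsk7 (0.85, adjusted p = 0.0015) and Furin (0.45, adjusted p = 0.023, up to 0.096 without the first array of either group) rose by less, and Pcsk6 fell by 0.98 (adjusted p = 0.00086). Adamts1 and its substrate Sema3c were thus both higher, by 4.55 and 0.67 log2.

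Inside the cell, 28 genes of plexin signalling were listed and 25 tested, of which 10 rose, 8 fell and 7 did not pass the test (median log2 difference 0.11). The Rnd GTPases, which bind plexins, split: Rnd3 rose from 10.78 and 10.89 to 13.66 and 13.24 (log2 difference 2.62, SE 0.16, adjusted p = 0.00052), while Rnd1 fell by 0.91 (SE 0.07, adjusted p = 0.00095) and Rnd2 fell by 0.62 (SE 0.12, adjusted p = 0.014, and 0.054 without the first Pak1+/+ array). The second probes of Rnd1 (-0.74) and Rnd2 (-0.78) had the sign of the first. Farp2, an exchange factor that sits on A-type plexins, fell by 0.86 (SE 0.13, adjusted p = 0.0058). Its relative Farp1 had probes that disagreed, with 0.61 on the brighter and -1.14 on the other, so that no direction is given for it, although its brighter probe is counted above.

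Kinases and microtubule-binding targets of the pathway also moved in both directions. Fes rose by 0.87 (SE 0.09, adjusted p = 0.0021) and Gsk3b by 0.97 (SE 0.14, adjusted p = 0.0057), with their other probes in the same direction, while Fyn fell by 0.58 (SE 0.08, adjusted p = 0.0048). Of the collapsin response mediators, the cytoskeletal effectors of Sema3a, Dpysl3 was not well above background on the Pak1+/+ arrays. It was at least 3.05-fold higher on the arrays labelled Pak1-/- (adjusted p = 0.00023), while its second probe was well above background on no array. Dpysl5 fell by 0.47 (SE 0.07, adjusted p = 0.0060). Dpysl2, named here after its value was seen, fell too (-0.45, SE 0.07, adjusted p = 0.0079). Dpysl4 did not pass the test (-0.02, adjusted p = 0.79), and Crmp1 was well above background on no array. Over all 5 lists, 58 of 67 genes were tested, 23 rose and 19 fell, with a median log2 difference of 0.03 beside -0.05 over all genes tested.

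**Figure D4:**
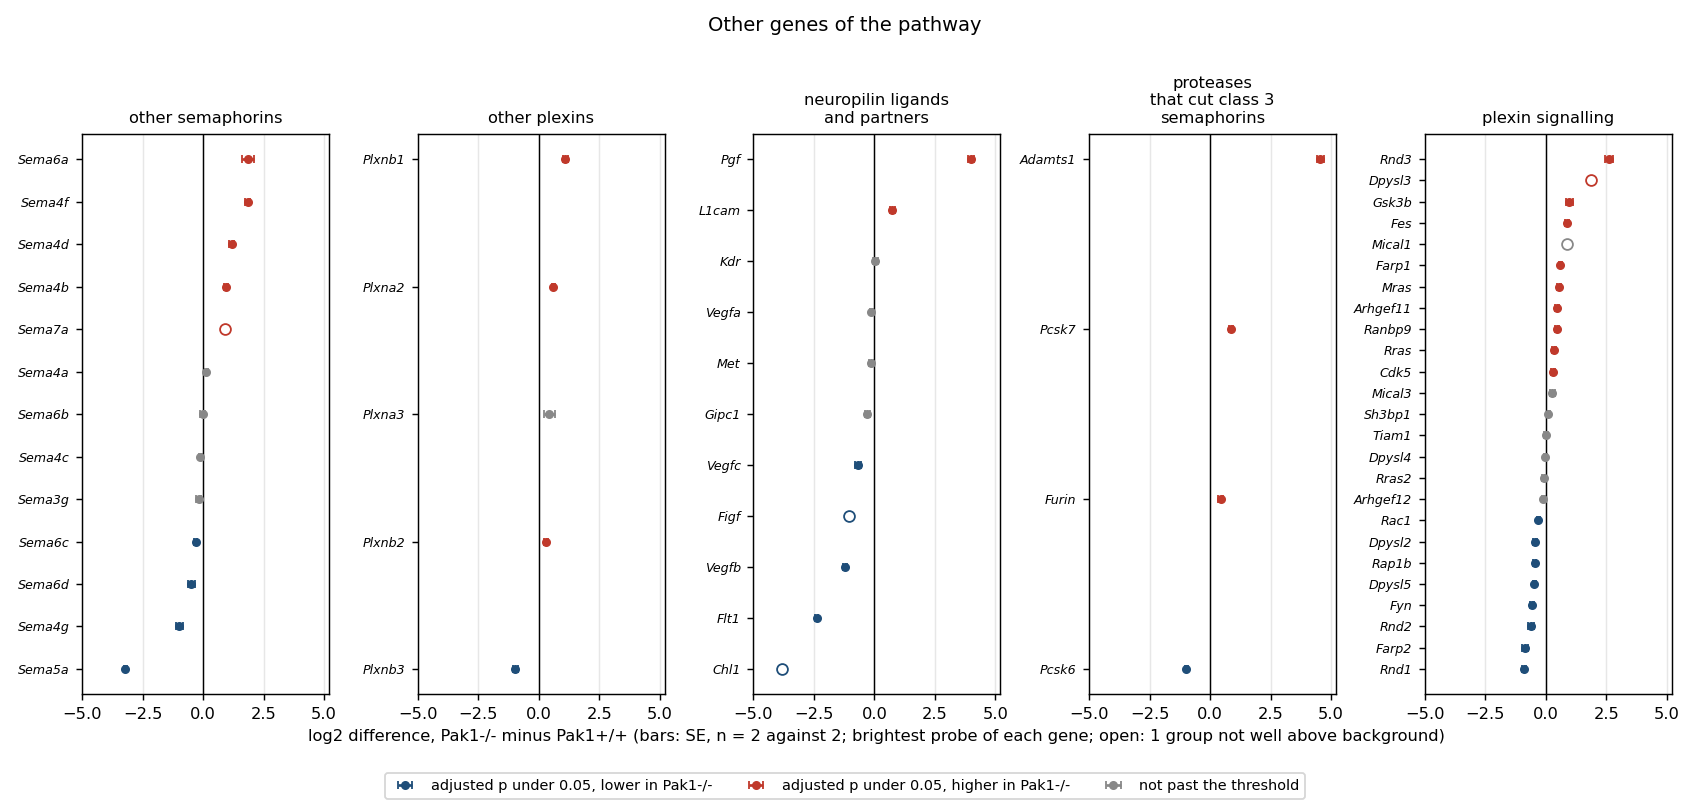
Log2 difference, arrays labelled Pak1-/- minus Pak1+/+ (horizontal axes, bars for the SE, n = 2 against 2), of the tested genes of the 5 pathway lists, 1 panel a list and 1 row a gene by its brightest probe. Red and blue mark genes past an adjusted p of 0.05 and grey the others, with open symbols and no bars where 1 group was not well above background and the position is only a measured value beside a bound. Pgf at 3.98 and Adamts1 at 4.55 lie far to the right, and Sema5a at -3.21 far to the left.

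The genes most like Sema3b over the 4 arrays were sought among 19105 genes well above background on all arrays, by the Euclidean distance between centred log2 values. The nearest were Cd177 (0.32), Kcne3 (0.38), Fetub (0.42), Mfsd7c (0.58) and Hal (0.59). With 2 arrays a group, such a likeness says little more than that a gene fell by about as much: the log2 differences were -5.20 for Cd177, a neutrophil surface protein, -5.76 for Kcne3, a potassium channel subunit, -5.12 for Fetub, a cystatin-family plasma protein, -6.03 for Mfsd7c, a transporter now named Flvcr2, and -4.86 for Hal, the first enzyme of histidine breakdown. They lie on 4 chromosomes other than that of Sema3b.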

How the data were processed

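RNA of 4 mouse cell samples (2 labelled Pak1-/-, 2 Pak1+/+) was read on 1-colour Agilent arrays. The authors deposited scanner files with linear spot intensity and local background, read with Agilent Feature Extraction 9.5 per the labels, and a table of log2 values that their methods describe as normexp corrected and quantile normalized (24008 of 39485 rows held values). No per-sample column was left out.

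Intensities were background corrected with normexp (offset 50, limma 3.58.1 in R 4.3.3), control spots were left out, and log2 values were quantile normalized and averaged per probe without outlier spots. Of 39429 probes, the 27229 well above background on at least 2 of 4 arrays were fitted with lmFit and eBayes (two-sided), with Benjamini-Hochberg adjustment over all of them at 0.05. The fit had 2 residual and 2.62 prior degrees of freedom, so the number of arrays limits precision. The offset understates changes of dim probes. A dim group (not well above background on either array) has only a bound: "at least N-fold" sets the brighter mean against the higher of the dim value and the lowest signal well above background. The fit was also run on simulated data with known changes, which checks the code and not the results given here.

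Members and lists were chosen with earlier results of these data known. Named genes were all members, up to 5 higher and 5 lower genes past the threshold per list, up to 10 such genes within 200 kb of Sema3b or Sema3f, and the 5 most like Sema3b. Pairing by replicate number was checked: the replicate differences of the groups correlated at -0.03 across probes, so the numbers were not taken to pair samples. Genes and coordinates (mm9) are those of the files, and promoters are RefSeq's (GRCm38.p6). Alternatives were other background corrections, scalings and filters, the deposited table, a replicate block and leaving out each array. The mean over all probes of a gene was an alternative for member differences, not for those of named pathway and neighbour genes.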

Additional observations from a re-analysis of the deposited data

How the results depend on the processing

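As a description, the difference of each of 6 members kept its sign under every alternative: Sema3b ran from -6.24 to -5.32, Sema3e from -1.44 to -0.89, Sema3c from 0.58 to 0.77, Nrp2 from 0.67 to 1.03, Sema3f from 0.28 to 0.44 and Nrp1 from 0.27 to 0.41. Members past the threshold and higher numbered 2 to 3 when 1 array was left out (4 with all arrays). Sema3f also fell short of the threshold with Agilent's processed intensities scaled to the 75th percentile. At an adjusted p under 0.01, 8878 probes were called in place of 14132. Neighbours that were lower numbered 2 in place of 4 with processed or normexp intensities scaled to the 75th percentile, with cyclic loess, without the filter and with the replicate block, and 2 to 3 when 1 array was left out. The cause was not tested. The replicate block gave 13211 probes, 4 higher and 2 lower members, and 21 higher and 18 lower pathway genes. Of 523 values of 44 named pathway and neighbour genes under the alternatives, 500 stayed on their side of the threshold, 23 fell short of it and 0 changed sign. Those that fell short were of Sema6d, Sema6c, Furin, Vegfc, Rnd2 and Plxnb2, the last with a difference of 0.08 with processed intensities. The mean over all probes of a gene was not among the alternatives for these 44 genes. Their signs are therefore those of the brightest probe, also for Farp1, whose probes disagreed. An array left out leaves 1 sample in its group, which is then assumed to vary like the other group. Signal over background limits Sema3a and Sema3d, for which no difference could be given.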
